A study of Mus musculus with 12 samples.

Results

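The antioxidant and iron storage genes described here are the 10 genes Nfe2l2, Hmox1, Nqo1, Gclc, Gclm, Txnrd1, Srxn1, Fth1, Ftl1 and Gpx4, taken by symbol from the 23022 genes listed for these libraries. Each symbol matched 1 row. All 10 reached at least 1 TPM, a unit that gives each gene's share of a library's transcripts, in 3 or more libraries, the filter that left 11663 genes for testing. RNA was sequenced from B16-F10 cells, a mouse melanoma line, that expressed Cas9 and came from 1 sorted clone. The 4 conditions held 3 libraries each, 12 in all. Cells with a non-targeting control guide (NTC, which the sample labels call no template control) and double knockout cells (DKO) carrying a paired guide against Mbnl1 and Mbnl2 were each left untreated or given interferon gamma (IFNγ) at 1 ng/mL for 24 h. The labels do not give this dose and time. The DKO cells were a polyclonal edited population, in which the paper describes some remaining protein, and no untouched parental cells are among the conditions. The replicates are numbered without any word on separate cultures, so the p-values measure the spread between these libraries, which may be technical.

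Nfe2l2 encodes NRF2, a transcription factor that Keap1 holds at low levels by sending it to the proteasome until oxidants or electrophiles modify Keap1. NRF2 then pairs with small Maf proteins on antioxidant response elements and raises genes for heme breakdown (Hmox1), quinone reduction (Nqo1), glutathione synthesis (Gclc and Gclm) and thiol repair (Txnrd1 and Srxn1). Bach1 occupies the same elements and represses Hmox1. Fth1 and Ftl1 encode the heavy and light chains of ferritin, the shell that stores iron, and Gpx4 is the selenoenzyme that reduces lipid hydroperoxides and so holds back ferroptosis. Melanocytic cells also make melanin, a chemistry that produces oxidants.

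Ferritin is controlled mainly at translation, through a hairpin in the 5′ untranslated region, the iron-responsive element, which iron regulatory proteins bind when iron is scarce. The elements are shown because an RNA level alone does not report this step. The pattern of a C, any 5 bases and then CAGTGN was searched in the RNA sense of GENCODE M21 transcripts (GRCm38), and the capitals mark the loop. The Fth1 element lies at chr19:9982732-9982761 on the plus strand and the Ftl1 element at chr7:45459778-45459807 on the minus strand, each within 1 exon. The element shown for Tfrc, the transferrin receptor that imports iron, is the first of 5 matches in its 3′ untranslated region and lies at chr16:32631219-32631248 on the plus strand.
Fth1: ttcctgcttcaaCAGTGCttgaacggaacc
Ftl1: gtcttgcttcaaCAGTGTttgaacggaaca
Tfrc: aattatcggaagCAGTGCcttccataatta
The ferritin elements were identical at 26 of 30 bases. The same pattern occurred within the first 150 bases of 5.99% of 58695 protein-coding transcripts, and 10.2% of 2648 protein-coding transcripts of 4500 to 5300 bases, about as long as that of Tfrc, held at least 5 matches. The Fth1 transcript had 1 further match in its 3′ untranslated region. A match describes the letters only.

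The core of the antioxidant response element, TGACNNNGC, was searched on both strands of the RefSeq promoter windows (GRCm38.p6), which run from 250 bases before a start site to 50 bases after it. Of the 8 genes with a window, Nfe2l2, Srxn1, Gclm and Txnrd1 held a match, the last in 1 of its 3 windows, whereas 14% of 27025 genes held one. Some genes have several windows, and counted by window 4 of 14 held a match (28.6%), against 12.4% of 32851. Hmox1 and Gclc had no entry. The matches are shown on the strand that reads TGAC, with the core in capitals, for the regulator and 3 of its targets. They lie at chr2:75704885-75704913 for Nfe2l2, chr2:152105542-152105570 for Srxn1, chr3:122245413-122245441 for Gclm and chr10:82859104-82859132 for Txnrd1, all read from the minus strand.
Nfe2l2: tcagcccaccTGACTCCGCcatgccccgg
Srxn1: tgtctcactcTGACCTAGCtgcccactgc
Gclm: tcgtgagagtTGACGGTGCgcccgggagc
Txnrd1: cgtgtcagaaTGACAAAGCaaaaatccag
No match in a window says only that these letters are not in it.

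The values are TPM, which scale each gene by its length and by its library and keep no read depth. Over the listed genes they summed to 844185 to 874612 TPM in NTC libraries and 805782 to 827191 TPM in DKO libraries. Mbnl1 RNA was lower in DKO cells by 0.41 (log2, adjusted p = 2.54e-05, limma) without IFNγ and by 0.47 (8.12e-06) with it, and Mbnl2 by 0.20 (0.00937) and 0.23 (0.00308), with every DKO library below every NTC library. With equal library totals the treated Mbnl2 difference was −0.15 (0.0251). All 7 melanocyte markers were expressed, and their summed level was 16647 to 18643 TPM in NTC libraries and 11124 to 12414 TPM in DKO libraries. The part of this difference between genotypes in the results below was not tested. Immune markers summed to at most 7.14 TPM, with Ptprc, Cd3e and Emr1 listed at 0 in every library, and fibroblast markers to at most 2.22 TPM, with Dcn and Lum at 0. In bulk RNA, fewer cells of one kind and less RNA per cell cannot be told apart.

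The 10 genes spanned a wide range of levels in TPM. Ftl1 was highest, with 7757 to 10215 TPM across the 12 libraries, or 0.891% to 1.24% of all listed TPM. Fth1 followed with 1629 to 1784 TPM. Gpx4 (335 to 447 TPM) and Hmox1 (140.0 to 233 TPM) came next, then Txnrd1 (118 to 135 TPM) and Nfe2l2 (85.0 to 107 TPM), whose ranges did not overlap. Gclm (25.6 to 31.2 TPM), Srxn1 (19.2 to 26.1 TPM) and Gclc (15.6 to 18.2 TPM) were lower, and the ranges of Gclm and Srxn1 overlapped. Nqo1 was lowest, with 3.25 to 5.99 TPM. Fth1 varied least across libraries, with a highest level 1.10 times its lowest, and Nqo1 most, at 1.84 times, followed by Hmox1 at 1.66 times. Within a condition the coefficient of variation was 0.988% to 8.39% for the 9 genes other than Nqo1 and 12.6% to 22.8% for Nqo1.

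**Figure D1:**
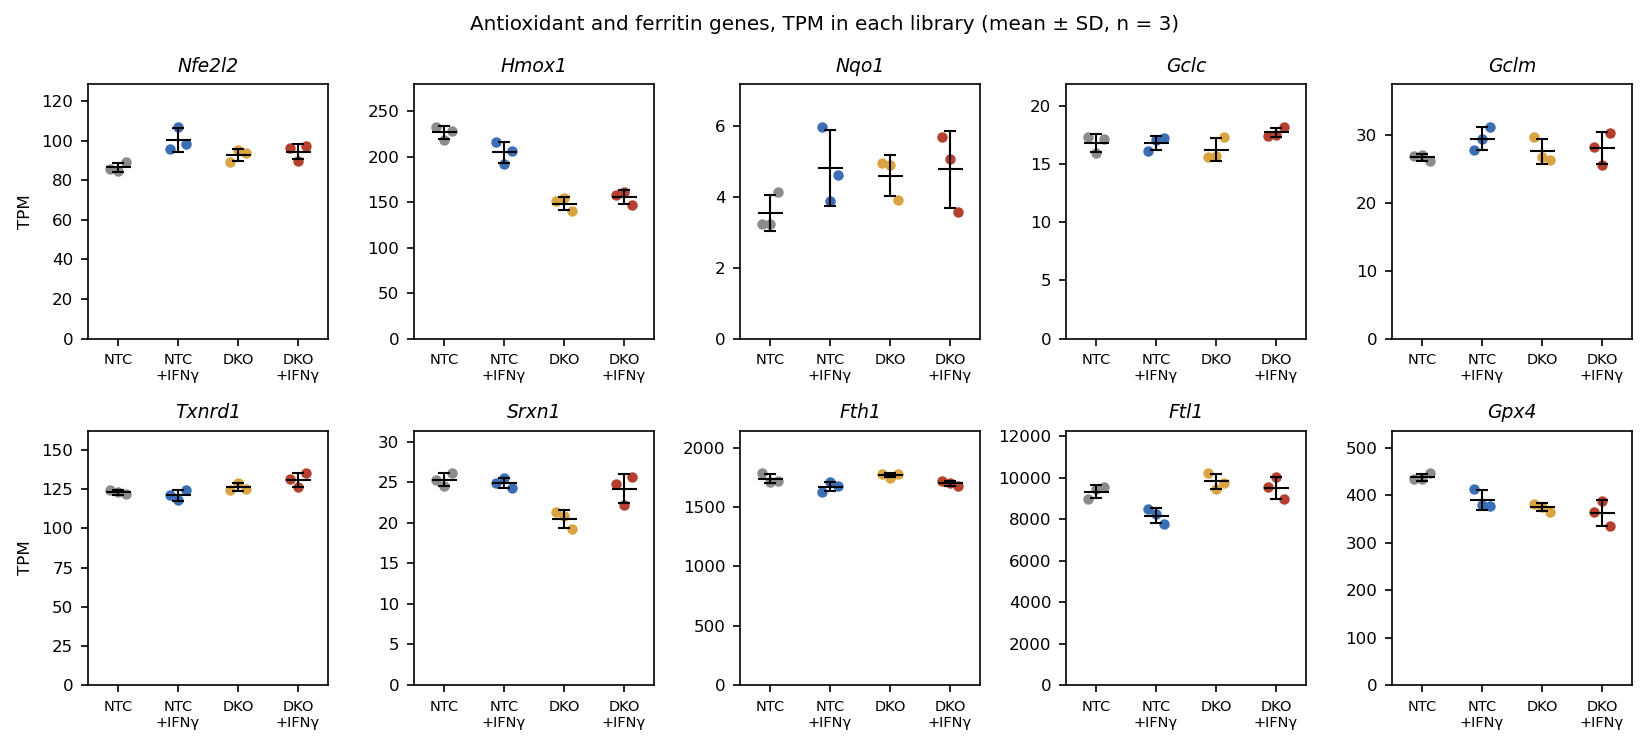
TPM (linear axes from 0) of the 10 genes in each library of the 4 conditions, with points for libraries and black bars for the mean ± SD (n = 3). All 6 DKO libraries of Hmox1 (140.0 to 161 TPM) sit below all 6 NTC libraries (192 to 233 TPM), while Fth1 stays between 1629 and 1784 TPM.

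Differences were fitted with limma on log2(TPM + 1) over all tested genes and called at a Benjamini-Hochberg adjusted p under 0.05. IFNγ in NTC cells changed 2 of the 10 genes, Nfe2l2 upward and Ftl1 downward, where 12.1% of all tested genes were called, 7.31% higher and 4.78% lower. In DKO cells IFNγ changed 0 of 10 by limma (1 at an unadjusted p under 0.05), against 0.78% of all genes. The difference between the IFNγ responses was called for 0 of 10 (3 at an unadjusted p under 0.05), against 0.0343%. Untreated DKO cells differed from untreated NTC cells in 3 of 10, Hmox1, Srxn1 and Gpx4, all lower, against 36.4% of all genes, 17% higher and 19.4% lower. With IFNγ, DKO and NTC cells differed in 3 of 10, Hmox1 lower and Ftl1 and Txnrd1 higher, against 43.3% of all genes, 19.5% higher and 23.9% lower. These counts were near the share of all genes and say nothing particular about the group.

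Counted by libraries that did not overlap between the groups, 6 of 10 genes were separated by IFNγ in NTC cells (36.6% of all tested genes) and 3 of 10 in DKO cells (14.7%). Between genotypes, 4 of 10 were separated without IFNγ (51.6%) and 4 of 10 with it (49.9%). The median log2 difference of the 10 genes was −0.02 and 0.03 for IFNγ in NTC and DKO cells. Between genotypes it was 0.03 in untreated and −0.03 in treated cells. The medians of all tested genes lay between −0.01 and 0.02 in these comparisons. The balance of all calls depended on the scaling between libraries: 46.7% of the calls between untreated genotypes were higher in DKO cells, against 60.8% when the listed TPM of every library were scaled to 1 total. With IFNγ, 44.9% and 65.4% were higher. Of the calls for IFNγ in NTC cells, 60.5% were higher, against 45.3% under that scaling and 48.8% under median-ratio scaling.

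**Figure D2:**
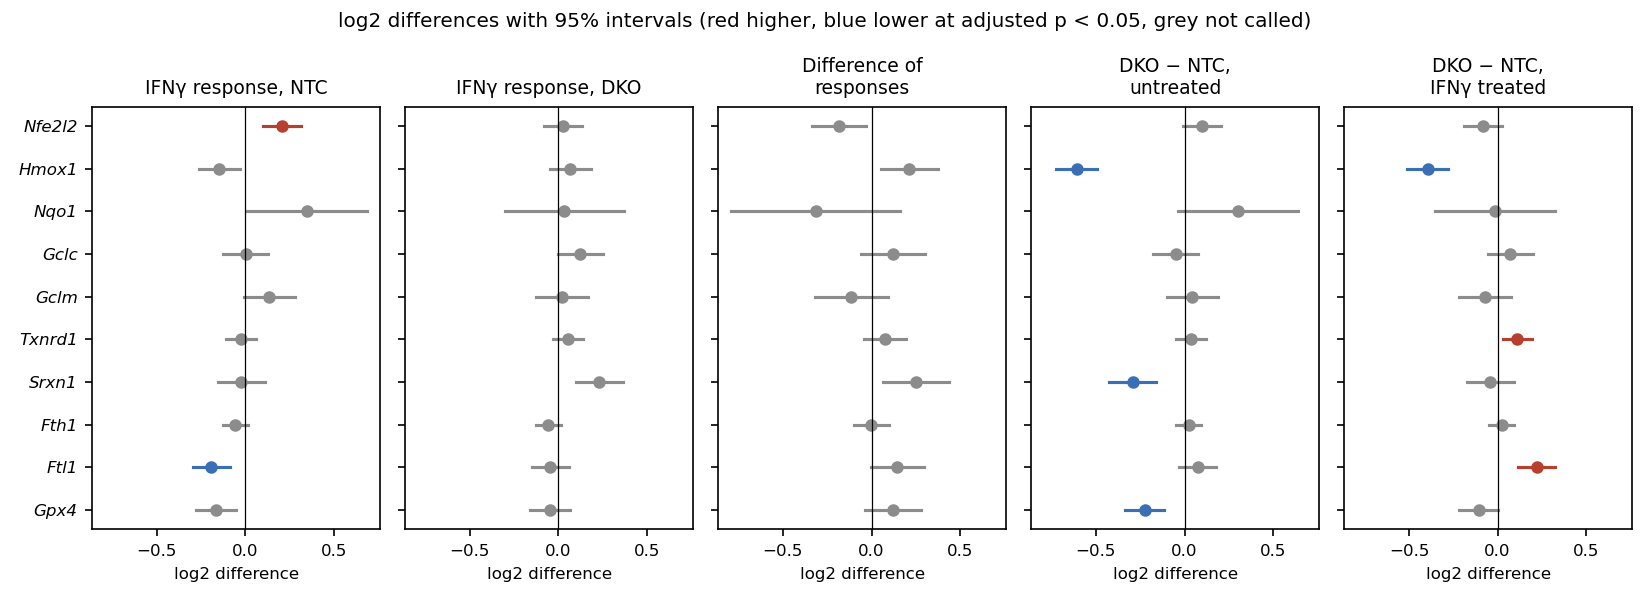
log2 differences of the 10 genes on the log2(TPM + 1) scale in the 5 comparisons, with points for the estimate, lines for its 95% interval, red and blue for genes called higher and lower, and grey for genes not called. Hmox1 in untreated cells has the lowest value (−0.61), and the interval of Nqo1 is the widest in each comparison.

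Nfe2l2 (chr2:75675513-75704641, minus strand) had 86.0, 85.0 and 89.3 TPM in untreated NTC cells and 95.7, 107 and 98.4 TPM with IFNγ. In DKO cells it had 89.5, 95.6 and 93.9 TPM untreated and 96.7, 90.0 and 97.3 TPM with IFNγ. Every treated NTC library was above every untreated one, whereas the DKO groups overlapped. The response in NTC cells was 0.21 (SE 0.0503, 1.15-fold, adjusted p = 0.0230), and the DKO response was 0.02 (95% interval −0.08 to 0.13, adjusted p = 0.929). The difference between these responses was −0.18 (95% interval −0.34 to −0.03) and was not called (adjusted p = 0.409). The NTC call was lost without NTC untreated replicate 1 (adjusted p = 0.0507), 2 (0.0827) or 3 (0.0539), and without NTC IFNγ replicate 2 (0.0926) or 3 (0.0610). It was also lost with a GC and length trend removed from each library (0.13, adjusted p = 0.0773, or 0.101 with the replicate number as a block). Without IFNγ, every DKO library was above every NTC library, with a log2 difference of 0.10 that was not called (adjusted p = 0.145) but was called with equal library totals (0.15, adjusted p = 0.0248) and with the GC and length trend removed (0.13, adjusted p = 0.0233, or 0.0317 with the block).

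Hmox1, heme oxygenase 1, which opens heme into biliverdin, carbon monoxide and iron, differed most between the genotypes among the 10 genes. The gene lies at chr8:75093621-75100589 on the plus strand. Untreated NTC libraries had 233, 219 and 229 TPM and untreated DKO libraries 151, 154 and 140.0 TPM. With IFNγ, NTC libraries had 216, 192 and 206 TPM and DKO libraries 158, 161 and 147 TPM. No DKO library reached the lowest NTC library under either treatment. The mean was 227 ± 7.34 TPM (SD, n = 3) in untreated NTC and 149 ± 7.54 TPM in untreated DKO cells, a log2 difference of −0.61 (SE 0.0536, 0.656-fold, adjusted p = 2.24e-06). With IFNγ the difference was −0.39 (0.761-fold, adjusted p = 7.36e-05). Both calls remained in each of the 12 fits that left out 1 library.

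The IFNγ response of Hmox1 was −0.15 in NTC libraries (adjusted p = 0.0823), and the DKO response was 0.07 (adjusted p = 0.750). Every treated NTC library was below every untreated one, and the NTC response was called without NTC IFNγ replicate 1 (−0.19, adjusted p = 0.0483). The responses differed by 0.21 (95% interval 0.05 to 0.38), which was not called (adjusted p = 0.392).

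Srxn1, sulfiredoxin, which repairs overoxidized peroxiredoxins, lies at chr2:152105516-152111376 on the plus strand. It had 25.3, 24.5 and 26.1 TPM in untreated NTC cells and 21.4, 20.9 and 19.2 TPM in untreated DKO cells. Treated NTC libraries had 24.9, 25.5 and 24.3 TPM, and treated DKO libraries 24.7, 22.2 and 25.7 TPM. The untreated DKO libraries were thus the lowest of the 12, and the treated genotypes overlapped. The untreated difference was −0.29 (SE 0.0614, 0.816-fold, adjusted p = 0.00219) and the treated one −0.04 (95% interval −0.17 to 0.09, adjusted p = 0.619).

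The IFNγ response of Srxn1 was 0.23 in DKO libraries (adjusted p = 0.161) and −0.02 in NTC libraries (adjusted p = 0.836). The DKO value had the lowest adjusted p of the 10 genes in that comparison, with all treated libraries above all untreated ones, and was called without DKO IFNγ replicate 2 (0.29, adjusted p = 0.0414). The difference between the responses was 0.25 (95% interval 0.06 to 0.44, adjusted p = 0.385).

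Txnrd1, cytosolic thioredoxin reductase, a selenoenzyme that keeps thioredoxin reduced, lies at chr10:82833951-82897712 on the plus strand. It had 125, 123 and 122 TPM in untreated NTC, 121, 118 and 125 TPM in treated NTC, 125, 129 and 125 TPM in untreated DKO and 132, 126 and 135 TPM in treated DKO cells. The treated DKO libraries all lay above the treated NTC libraries, by 0.11 (SE 0.0389, 1.08-fold, adjusted p = 0.0322). This call was lost without NTC IFNγ replicate 1 (adjusted p = 0.0664) or 2 (0.115), without DKO IFNγ replicate 1 (0.0847) or 3 (0.0895), and in a fit of those 6 libraries alone (0.101). With equal library totals the value was 0.20 (adjusted p = 0.000850). Without IFNγ the difference was 0.04 (adjusted p = 0.516), and the responses to IFNγ were −0.02 in NTC and 0.05 in DKO cells, neither called. Eid3 and 2 noncoding genes that overlap Txnrd1 in the annotation, on both strands, are not listed in the file.

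Nqo1, a quinone reductase often used as a readout of NRF2 activity, lies at chr8:107388225-107403206 on the minus strand. It had 3.25, 3.25 and 4.14 TPM in untreated NTC, 5.99, 3.88 and 4.62 TPM in treated NTC, 4.97, 4.91 and 3.93 TPM in untreated DKO and 5.70, 5.09 and 3.57 TPM in treated DKO cells. The groups overlapped in all 4 comparisons of conditions. Its log2 differences were 0.35 for IFNγ in NTC cells (95% interval 0.01 to 0.69, adjusted p = 0.145), 0.03 for IFNγ in DKO cells, 0.30 for untreated DKO against NTC (95% interval −0.04 to 0.64, adjusted p = 0.153) and −0.01 for the treated genotypes. Its SE was 0.156, against at most 0.0678 for the other 9 genes, so a difference of a given size was harder to detect at these few TPM.

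Gclc and Gclm encode the catalytic and modifier subunits of glutamate-cysteine ligase, the rate-limiting enzyme of glutathione synthesis. Gclc lies at chr9:77754535-77794485 and Gclm at chr3:122245557-122270732, both on the plus strand. Gclc had 17.3, 16 and 17.1 TPM in untreated NTC, 16.1, 17.1 and 17.3 TPM in treated NTC, 15.6, 15.7 and 17.4 TPM in untreated DKO and 17.5, 17.5 and 18.2 TPM in treated DKO cells. Gclm had 26.9, 27.1 and 26.2 TPM, 27.8, 29.5 and 31.2 TPM, 29.7, 26.8 and 26.4 TPM, and 28.3, 25.6 and 30.3 TPM in the same order. Neither gene was called in any of the 5 comparisons. The largest differences in size between conditions were 0.14 for Gclm with IFNγ in NTC cells (95% interval −0.01 to 0.28, adjusted p = 0.185), where the groups did not overlap, and 0.12 for Gclc with IFNγ in DKO cells (95% interval −0.00435 to 0.25, adjusted p = 0.539), where they did not overlap either. With equal library totals, Gclc was called higher in treated DKO than treated NTC cells (0.16, adjusted p = 0.0422). Gclm overlaps an antisense transcript that is not listed, and the unstranded libraries do not separate the strands.

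The ratio of Gclc to Gclm within a library does not depend on the scaling between libraries. It was 0.644, 0.589 and 0.655 in untreated NTC cells and 0.580, 0.581 and 0.552 with IFNγ, so every treated library was lower (exact two-sided permutation test, p = 0.1, the smallest that 3 against 3 libraries allow). In treated DKO cells it was 0.617, 0.684 and 0.601, above all treated NTC libraries (exact p = 0.1). Untreated DKO cells spread from 0.526 to 0.658 and overlapped both of their comparison groups (exact p = 0.5 against untreated NTC and 0.4 against treated DKO). Over the 8 ratio tests of both pairs of subunits, no p could pass 0.05. Gclc has a GC content of 47.7% and Gclm of 42.1%. Their ratio was not recomputed with the GC and length trend removed, so its dependence on GC content was not tested.

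Ftl1, the ferritin light chain, which aids iron mineral formation, lies at chr7:45457944-45459884 on the minus strand. Untreated NTC libraries had 8961, 9448 and 9579 TPM and treated NTC libraries 8477, 8256 and 7757 TPM. Untreated DKO libraries had 10215, 9481 and 9769 TPM and treated DKO libraries 9535, 10027 and 8986 TPM. The treated NTC libraries were the lowest 3 of the 12, and the other groups overlapped one another. IFNγ lowered Ftl1 in NTC cells by 0.19 (SE 0.0489, 0.875-fold, adjusted p = 0.0261), and in DKO cells the value was −0.05 (95% interval −0.15 to 0.06, adjusted p = 0.811). The difference between the responses was 0.15 (95% interval −0.00231 to 0.30, adjusted p = 0.436).

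Between genotypes Ftl1 was higher in treated DKO than treated NTC cells by 0.22 (SE 0.0489, 1.17-fold, adjusted p = 0.00269), a call that remained in each of the 12 fits without 1 library. Without IFNγ the value was 0.07 (adjusted p = 0.261). The IFNγ call in NTC cells was lost without NTC untreated replicate 2 (adjusted p = 0.0870) or 3 (0.0961), without NTC IFNγ replicate 2 (0.0710) or 3 (0.103), and with no filter on low values (0.0605). GC content moved with this comparison: across 11563 tested genes, the log2 response to IFNγ in NTC cells and GC content had r = −0.451, points that share the same 6 libraries, and in DKO cells r was −0.104. Ftl1 has a GC content of 58.1%, above 91.0% of tested genes. With a GC and length trend removed from each library, the Ftl1 response in NTC cells was −0.07 (adjusted p = 0.144) and the treated genotype difference 0.11 (adjusted p = 0.00321).

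Fth1, the ferritin heavy chain, which carries the ferroxidase activity, lies at chr19:9980598-9985098 on the plus strand. It had 1784, 1714 and 1719 TPM in untreated NTC, 1629, 1709.95 and 1678 TPM in treated NTC, 1781, 1748 and 1775 TPM in untreated DKO and 1721, 1701 and 1675 TPM in treated DKO cells. Treated libraries were below untreated ones in each genotype, by narrow gaps. The responses were −0.06 in NTC cells (95% interval −0.13 to 0.01, adjusted p = 0.247) and −0.06 in DKO cells (95% interval −0.13 to 0.01, adjusted p = 0.606). The genotype differences were 0.02 under each treatment (95% intervals −0.05 to 0.09), the narrowest intervals of the 10 genes, and were not called (adjusted p = 0.598 and 0.594). With equal library totals, the treated difference was 0.11 and was called (adjusted p = 0.0102).

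Summed over both chains, ferritin RNA took 1.25% to 1.33% of listed TPM in untreated NTC, 1.08% to 1.17% in treated NTC, 1.37% to 1.46% in untreated DKO and 1.29% to 1.46% in treated DKO libraries. The ratio of Fth1 to Ftl1 was 0.187 ± 0.0108 (SD, n = 3) in untreated NTC, 0.205 ± 0.0122 in treated NTC, 0.180 ± 0.00521 in untreated DKO and 0.179 ± 0.00849 in treated DKO cells. Only for treated DKO against treated NTC cells did the libraries not overlap among the 4 comparisons (0.170 to 0.186 against 0.192 to 0.216, exact two-sided permutation p = 0.1). The other 3 exact p were 0.2, 0.6 and 0.8. Reads shared with other ferritin-like genes and pseudogenes of the annotation could be assigned either way. Of these, Ftl1-ps1, annotated as protein coding, was listed at up to 2.25 TPM and Fthl17a at 0, and the pseudogenes are not listed.

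**Figure D3:**
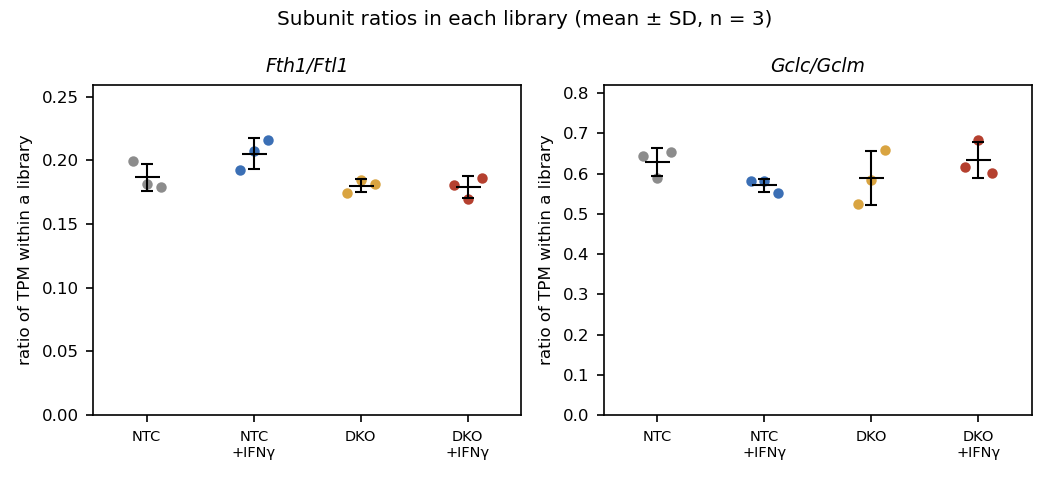
Ratio of Fth1 to Ftl1 and of Gclc to Gclm TPM within each library (linear axes from 0) in the 4 conditions, with points for libraries and black bars for the mean ± SD (n = 3). Treated NTC libraries have the highest Fth1 to Ftl1 ratios on average (0.205) and the lowest Gclc to Gclm ratios (0.571).

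Gpx4 lies at chr10:80047166-80056439 on the plus strand. It had 434, 434 and 447 TPM in untreated NTC, 414, 380.5 and 377 TPM in treated NTC, 383, 376 and 366 TPM in untreated DKO and 366, 389 and 335 TPM in treated DKO cells. The untreated NTC libraries were the highest 3 of the 12, and the other 3 groups stood closer together. Untreated DKO cells were lower than untreated NTC cells by 0.23 (SE 0.0517, 0.855-fold, adjusted p = 0.00400), a call that remained in each of the 12 fits without 1 library. With IFNγ the difference was −0.11 (95% interval −0.22 to 0.00497, adjusted p = 0.113), and it was called without DKO IFNγ replicate 2 (−0.16, adjusted p = 0.0247). This treated difference depended on the scaling, and with equal library totals it was −0.0199 (adjusted p = 0.805).

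The IFNγ response of Gpx4 in NTC cells was −0.17 and narrowly missed the threshold (95% interval −0.28 to −0.06, adjusted p = 0.0518), with every treated library below every untreated one. It was called without NTC IFNγ replicate 1 (adjusted p = 0.0266). Without DKO IFNγ replicate 2 (0.0238) or 3 (0.0217) it was also called, with its value unchanged at −0.17. DKO libraries bear on this response only through the filter, the shared spread and the adjustment. With all libraries kept, it was also called with equal library totals (−0.20, adjusted p = 0.0456), under median-ratio scaling (−0.19, adjusted p = 0.0400) and in a fit of the 6 NTC libraries alone (adjusted p = 0.0373). In DKO cells the response was −0.05 (adjusted p = 0.820). Gpx4 has the highest GC content of the 10 genes, 60.2%, above 96.4% of tested genes. With the GC and length trend removed, its response in NTC cells was 0.02 (adjusted p = 0.749), and the treated genotype difference became −0.26 (adjusted p = 4.32e-05). The processed copy Gpx4-ps2 is not listed.

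Among the regulators of Nfe2l2, 11 of 12 were tested. Without IFNγ, DKO cells had 1 higher and 4 lower, and with it 2 higher and 4 lower. Of all tested genes, 36.4% were called without IFNγ (17% higher, 19.4% lower) and 43.3% with it (19.5% and 23.9%). Nfe2l1, which encodes the related factor NRF1, had 135, 122 and 125 TPM in untreated NTC and 87.9, 84.1 and 84.1 TPM in untreated DKO cells (−0.57, adjusted p = 1.28e-06). The small Maf partner Mafg had 46.4, 44.6 and 46.4 TPM against 35.7, 30.6 and 34.7 TPM (−0.44, adjusted p = 6.93e-05). Dpp3, a peptidase that binds Keap1, was higher by 0.31 (adjusted p = 0.000121) and, with IFNγ, by 0.41 (adjusted p = 9.59e-06). Keap1 itself was higher in treated DKO than treated NTC cells (19.4, 20.6 and 18.9 against 17.4, 17.5 and 15 TPM, 0.23, adjusted p = 0.0195), a call lost without NTC IFNγ replicate 3 (0.0934) or DKO IFNγ replicate 2 (0.0706). Rbx1, another of these regulators, was lower in treated DKO than treated NTC cells (−0.39, adjusted p = 6.38e-06). With the GC and length trend removed, the treated values were 0.27 for Dpp3 (adjusted p = 4.60e-05) and 0.07 for Keap1 (adjusted p = 0.357). For Rbx1 the value was then −0.25 (adjusted p = 0.000120). Bach1, the Hmox1 repressor, had 9, 9.12 and 9.51 TPM in untreated NTC and 10.1, 9.94 and 10.7 TPM in untreated DKO cells, a difference of 0.14 that was not called (adjusted p = 0.0895).

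Of 25 further NRF2 targets, all were tested. Untreated DKO cells had 8 higher and 8 lower (36.4% of all tested genes were called), and treated DKO cells 6 higher and 7 lower (43.3%). The medians of these targets were −0.00138 and −0.03 beside −0.00552 and −0.01 for all genes. The largest falls were in Mgst1, a microsomal glutathione transferase, with 29.8, 25.3 and 29.1 TPM in untreated NTC and 9.28, 5.89 and 8.60 TPM in untreated DKO cells (−1.72, adjusted p = 5.05e-07), and in Slc7a11, the cystine importer subunit of system xc-, with 29.95, 20.9 and 24.5 against 7.09, 8.91 and 6.73 TPM (−1.60, adjusted p = 2.27e-06). With IFNγ these were −1.87 (adjusted p = 2.34e-07) and −1.54 (adjusted p = 2.79e-06). Ephx1, microsomal epoxide hydrolase, rose instead, from 97.8, 86.6 and 89.5 TPM in untreated NTC to 157, 165 and 166 TPM in untreated DKO cells (0.83, adjusted p = 5.02e-08). These targets therefore did not share a direction.

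IFNγ in NTC cells raised 6 of the 25 targets and lowered 0 by limma, where 7.31% of all tested genes were called higher and 4.78% lower. Ugdh, which makes UDP-glucuronate, was among the 6 (0.31, adjusted p = 0.0189) and was lost with the GC and length trend removed (0.20, adjusted p = 0.116), without NTC IFNγ replicate 2 (0.0763) and without NTC IFNγ replicate 3 (0.0674). Mgst1 rose by 0.61 (adjusted p = 0.0145), a call lost without NTC untreated replicate 2 (0.0588) or NTC IFNγ replicate 2 (0.0584). In DKO cells 1 of 25 was called, against 0.78% of all tested genes. This was G6pdx, which feeds the pentose phosphate pathway and so NADPH supply. It had 78.9, 79.6 and 78.8 TPM untreated and 98.3, 94.7 and 95.7 TPM treated (0.28, adjusted p = 0.00392). In NTC cells G6pdx rose too, from 66.4, 71.9 and 71.2 TPM untreated to 85.9, 80.6 and 86.4 TPM treated.

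Of 21 genes of iron handling, 19 were tested. DKO cells had 5 higher and 5 lower without IFNγ and the same numbers with it, against 36.4% and 43.3% of all tested genes. Tfrc had 77.9, 85.2 and 83.5 TPM in untreated NTC and 119, 118 and 123 TPM in untreated DKO cells, a difference of 0.54 (adjusted p = 1.56e-05). Treated NTC libraries had 102, 106 and 100.4 TPM, and treated DKO libraries 125, 112 and 134 TPM (0.26, adjusted p = 0.00350). IFNγ also raised Tfrc in NTC cells, by 0.32 (adjusted p = 0.00865), or by 0.19 with the GC and length trend removed (adjusted p = 0.0365, and 0.0610 with the replicate number as a block as well, where the call was lost). Steap3, the endosomal ferrireductase that works with Tfrc, was higher in DKO cells by 0.52 (adjusted p = 8.85e-05) and 0.72 (adjusted p = 4.40e-06), and the iron importer Slc11a2 by 0.37 with IFNγ (adjusted p = 0.000382). Hfe, a regulator of iron uptake, was lower by 0.96 (adjusted p = 0.000331) and 0.80 (adjusted p = 0.00111), and Cp, the ferroxidase ceruloplasmin, by 0.61 (adjusted p = 4.47e-05) and 0.57 (adjusted p = 6.75e-05). The mRNAs of the iron regulatory proteins were not called in DKO against NTC cells: Aco1 differed by 0.14 without IFNγ (adjusted p = 0.0775) and Ireb2 by 0.04 (adjusted p = 0.666).

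Among other glutathione peroxidases and genes of ferroptosis, 10 of 13 were tested. Untreated DKO cells had 2 higher and 3 lower, treated DKO cells 3 of each, against 36.4% and 43.3% of all tested genes. Chac1, which breaks glutathione down, had 139, 137 and 143 TPM in untreated NTC and 70.3, 70.6 and 67.1 TPM in untreated DKO cells (−1.001, adjusted p = 3.41e-08). Slc3a2, the chain that pairs with Slc7a11, had 325, 286 and 296 against 177, 173 and 176 TPM (−0.78, adjusted p = 1.01e-07), and Gss, glutathione synthetase, was lower by 0.24 (adjusted p = 0.0166). Gpx1, the cytosolic glutathione peroxidase, was higher, with 92.0, 104 and 99.0 against 146, 134 and 133 TPM (0.48, adjusted p = 2.17e-05). Lpcat3, which loads polyunsaturated fatty acids into phospholipids, was higher by 0.29 (adjusted p = 0.000281). Acsl4, which activates those fatty acids, differed by 0.06 (adjusted p = 0.592).

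All 17 genes of the thioredoxin, peroxiredoxin and superoxide dismutase list were tested. Untreated DKO cells had 5 higher and 4 lower, treated DKO cells 4 and 3, against 36.4% and 43.3% of all tested genes. Mitochondrial thioredoxin reductase, Txnrd2, was lower by 0.46 (adjusted p = 1.67e-05) and 0.31 (adjusted p = 0.000389), and glutaredoxin, Glrx, was higher by 0.55 without IFNγ (adjusted p = 0.000811). Txnip, which binds and inhibits thioredoxin, was higher by 0.56 with IFNγ (adjusted p = 1.16e-05). Of the 6 genes of selenoprotein synthesis, on which Gpx4 and Txnrd1 depend, 1 was higher and 2 lower without IFNγ. With it, 1 was higher and 3 lower, and the shares of all tested genes called were 36.4% and 43.3%. Sephs2, which makes the selenium donor, was higher by 0.37 (adjusted p = 0.000379) and 0.53 (adjusted p = 1.90e-05). Secisbp2, which binds the selenocysteine insertion element, was lower by 0.35 without IFNγ (adjusted p = 0.00405).

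**Figure D4:**
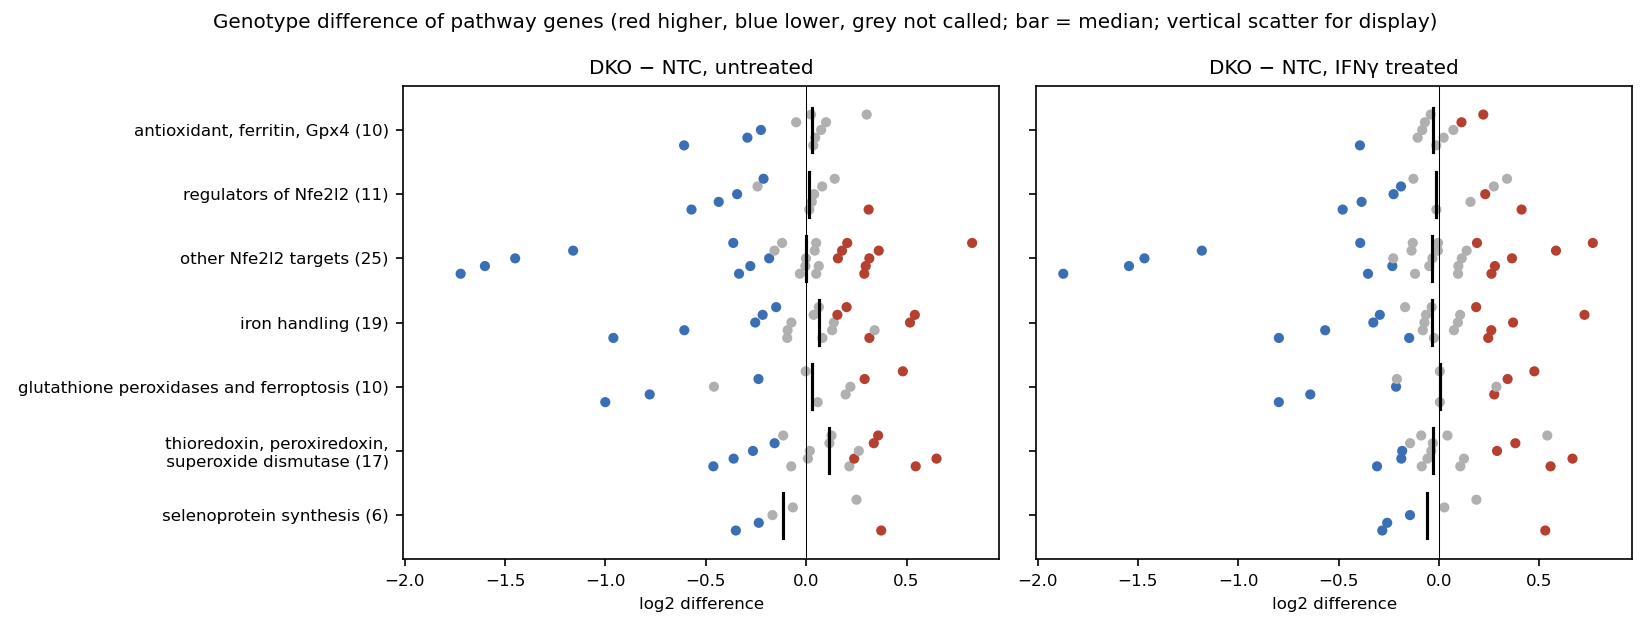
log2 difference of DKO against NTC cells (log2(TPM + 1) scale) for the 10 genes and 6 lists of related genes, without and with IFNγ, with a point per tested gene, red and blue for genes called higher and lower, grey for genes not called, and a black bar for the list's median (vertical scatter within a list is for display). Each list has called genes on both sides of 0 in both panels, except the 10 genes themselves without IFNγ, where the 3 called genes are lower.

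Over the 12 libraries, the genes outside the 10 whose log2(TPM + 1) was most like that of Hmox1 were Nat10, an RNA acetyltransferase (Pearson r = 0.986), Lonp1, a mitochondrial protease (0.984), and Chac1 (0.982). Among those most like Nfe2l2 were Hibadh (0.956) and Sgol2 (0.948). For Gpx4 they were Insc (0.969), Pcx (0.968) and Snx32 (0.961), and for Fth1 Sft2d3 (0.916), Inadl (0.870) and Prnp (0.862). These values describe 12 libraries that fall into 4 conditions and share the difference between genotypes, among 11653 genes compared.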

How the data were processed

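Per the paper's methods, the authors sequenced poly(A)-selected, unstranded libraries from both ends over 50 bp, estimated expression with RSEM 1.2.4 calling Bowtie on an annotation that included Ensembl 71, and passed unaligned reads to TopHat 20.8b (version as the submitters' processing notes give it) against GRCm38. The unit the authors deposited is TPM, under a name that says counts. No read depth can be had from TPM, and errors here come from replicate libraries only. By definition TPM divide a fixed total, so that a change in abundant genes shifts all others. The listed values did not share the same sum, and whether they were scaled further between libraries is not stated.

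The filter asked for 1 TPM or more in 3 or more libraries. limma 3.58.1 (R 4.3.3) was fitted to log2(TPM + 1) of all 12 libraries, with 1 mean per condition and a prior variance following the mean, and p-values were adjusted over all 11663 tested genes. Fold changes are on this scale, which understates low genes. Subunit ratios were compared by exact permutation. Alternatives were a pseudocount of 0.1 TPM, no filter, a replicate block, other scalings, a GC content and length trend taken out of each library (GENCODE M21, available for 99.1% of tested genes), only the libraries of a comparison, and each library left out. The fit was tested on simulated data. Exact tests used scipy 1.17.1, tables pandas 2.3.3 and numpy 2.4.6, and figures matplotlib 3.10.9, under Python 3.11.15.

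The genes and lists were chosen with earlier results of these data known. Named genes are the 10, Mbnl1 and Mbnl2, up to 2 genes per direction of each list and comparison with the largest differences past the threshold, and the 3 genes most like Nfe2l2, Hmox1, Fth1 and Gpx4, of which 1 is not reported here. Not every list gene that met this rule is named: Osgin1, Blvra, Gpx8, Prdx4, Glrx5, Sod3, Msra, Txnrd3, Eefsec and Sepsecs are not described. Bach1, Aco1, Ireb2, Gss and the genotype values of Acsl4 were chosen after their values were seen, for their roles. Of the list genes, Flvcr1 has no row. Splicing was not analysed here.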

Additional observations from a re-analysis of the deposited data

How the results depend on the processing

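All alternatives were planned. Of 990 recomputed values of the 10 genes, 910 kept their direction and side of the threshold, those called in neither fit included. The calls of Nfe2l2 and Ftl1 for IFNγ in NTC cells remained in 7 and 8 of the 12 fits without 1 library. With no filter on low values, 1 of the 10 genes and 897 genes in all were called for IFNγ in NTC cells, and 10 genes for the difference between responses. Removing the GC and length trend left 0 of 10 (519 in all), and 0 of 10 (407 in all) with the replicate block as well. With equal library totals, 5 of 10 were called between treated genotypes. The labels do not say whether the replicate numbers pair the libraries. Of 18 pairs of libraries with the same number, 4 had deviations correlated above 0.1, and all lay between −0.18 and 0.18. Pairs of unlike number were not computed for reference, so these values do not settle the pairing. A replicate block called 2 genes for the difference between responses, 1118 for IFNγ in NTC cells, and changed no call of the 10 genes.

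Leaving out 1 library at a time, calls among the 10 ranged from 0 to 4 (317 to 2023 in all) for IFNγ in NTC cells, 0 to 1 in DKO cells, and 0 to 7 in all for the difference between responses. Signs turned only for values not called. With equal library totals these were Gclc in NTC cells (−0.0298), the Fth1 difference of responses (0.0353), and Nfe2l2 (0.00238), Nqo1 (0.0594), Gclm (0.0137) and Srxn1 (0.0424) between treated genotypes. Under median-ratio scaling they were Gclc (−0.0169) and the Fth1 difference (0.00803). Without the GC and length trend, with or without the block, they were Gclc (−0.0484), Srxn1 (0.0164) and Gpx4 (0.0229) in NTC cells, Gclm in DKO cells (−0.00859), the differences of Fth1 (0.0106) and Gpx4 (−0.0262), and Nqo1 (0.0882) and Gclm (0.0281) between treated genotypes. Without 1 library, sign changes fell within the ranges −0.0333 to 0.0301 for Gclc in NTC cells, −0.00258 to 0.0600 for Nfe2l2, −0.0811 to 0.194 for Nqo1, −0.0343 to 0.0829 for Gclm and −0.0973 to 0.00845 for Gpx4 in DKO cells, −0.0197 to 0.0153 for the Fth1 difference, −0.00680 to 0.0761 for Gclm between untreated genotypes, and −0.134 to 0.147 for Nqo1 and −0.0834 to 0.0172 for Srxn1 between treated genotypes. The cause of these changes was not tested.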
